A study of Mus musculus with 6 samples.

Results

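The genes described here are 10 genes of the JAK and STAT pathway in mouse blood stem cells, 5 brakes (Socs1, Socs2, Socs3, Cish and Sh2b3) and 5 kinase and STAT genes (Jak1, Jak2, Stat3, Stat5a and Stat5b). They were taken by symbol from a deposited table of 18465 genes, all 10 were present, and all 10 passed a filter of at least 1 TPM on average. TPM corrects the reads for gene length and library total. Levels can be compared between genes as far as the lengths used fit the transcripts present. The set was selected on the TPM difference between the 2 genotypes in these same libraries, so its fold changes are a description, with no test of a single gene.

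RNA was sequenced from SLAM-LSK bone marrow cells, which lack lineage markers and CD48, carry CD150, Sca-1 and c-Kit, and include most long-term stem cells. The 2 groups were wild-type C57BL/6 mice (WT, 3 libraries) and C57BL/6 mice with 1 R751W allele of Mecom beside 1 normal allele (MecomWT:R751W, 3 libraries). Mecom encodes the zinc finger factor MECOM, also called EVI1. The labels name biological replicates but give neither age nor sex and do not say that each library came from its own mouse, so any p-value measures the spread between these samples.

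Cytokine receptors without an enzyme of their own signal through Janus kinases (JAKs) bound to their tails. The kinases phosphorylate STAT proteins, which then enter the nucleus and act as transcription factors. Among the genes that STATs switch on are the SOCS genes and Cish, whose products bind the receptor or the kinase and end the signal. In blood stem cells JAK2, STAT5 and STAT3 carry cytokine signals that support self-renewal, and SH2B3, also called LNK, restrains them.

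Of the 10 genes, Socs2 was the one whose 2 groups lay apart in TPM as deposited, at a level nearly double in MecomWT:R751W cells. Socs3 had the lower mean there but overlapped WT. The kinases and STATs had log2 fold changes between -0.18 and 0.03. With limma on log2(TPM + 1) over 16655 genes, 0 of the 10 passed an adjusted p of 0.05, beside 0% of all genes. At an unadjusted p under 0.05 there were 2 of 10, Socs2 and Socs3, beside 5.97% of all genes. The MecomWT:R751W values lay wholly above WT for 1 of 10 and wholly below for 0, beside 4.5% and 4.7% of all genes (9.19% in either direction). The median log2 fold change was -0.035 over the 10 genes, -0.0098 over the brakes and -0.043 over the kinases and STATs, beside -0.0037 over all genes.

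**Figure D1:**
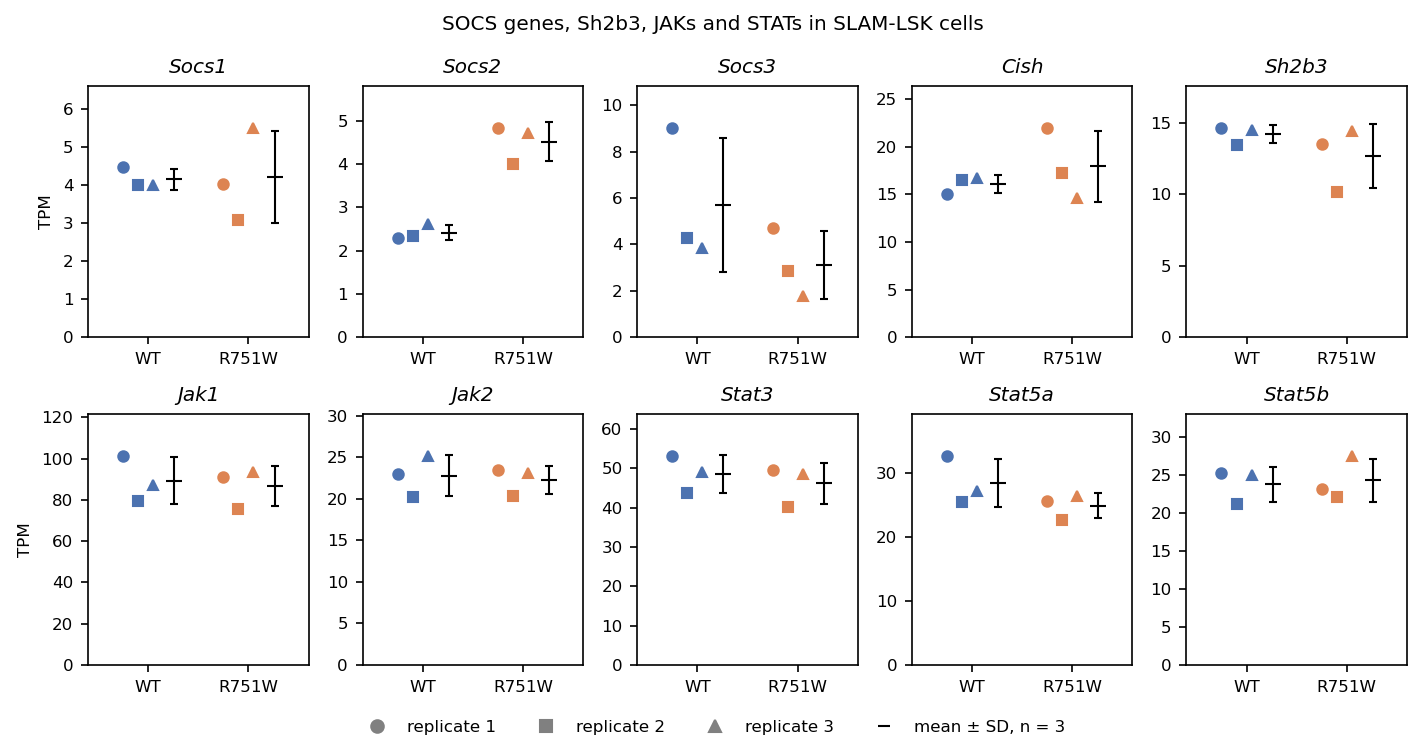
TPM of each gene in every library, with its own axis from 0 (blue, WT; orange, MecomWT:R751W; symbols, replicate number; bars, mean ± SD of 3 libraries). The Socs2 groups lie apart (2.30 to 2.62 and 4.00 to 4.84 TPM), while the groups of the other 9 genes overlap.

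Socs2 encodes a suppressor of cytokine signalling that carries a phosphotyrosine-binding SH2 domain and a SOCS box, which recruits a ubiquitin ligase. It is best known for limiting growth hormone receptor signalling, and it is a known STAT5 target. WT replicates 1 to 3 had 2.30, 2.33 and 2.62 TPM of Socs2, and the MecomWT:R751W replicates, given in the same order as in all values here, had 4.84, 4.00 and 4.71. Every MecomWT:R751W library was above every WT library, and the gap between the nearest libraries was wider than the range within either group. The means were 2.42 ± 0.176 and 4.52 ± 0.453 TPM (SD, n = 3 each), a ratio of 1.87. The log2 fold change was 0.69 (SE 0.18) on the log2(TPM + 1) scale, where a gene this low shows less than its full change. With 1 library left out it ranged from 0.65 to 0.76.

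The reads behind these values limit how finely they can be read. Whole reads could be worked back from the TPM of each gene, since dividing each library by 1 factor of its own leaves multiples of 1 step per gene. For Socs2 they came to 205, 227 and 267 in WT and 414, 378 and 470 in MecomWT:R751W. The exact Poisson interval (95%) of the highest WT library was 2.32 to 2.95 TPM and that of the lowest MecomWT:R751W library 3.60 to 4.42 TPM, so the 2 nearest libraries were apart beyond Poisson counting error. Such intervals leave out the spread between samples. They are also too narrow where reads made by PCR are not independent molecules. Over protein-coding rows alone 1 of 10 members passed the adjusted threshold, which was Socs2, beside 1.16% of 11394 genes. With voom on the implied reads it was again Socs2 alone, beside 0.3% of 16655 genes, and likewise over the protein-coding rows, beside 0.79% of genes. With 1 library left out of the protein-coding rows, Socs2 was called only without WT replicate 3, and 1.74% of genes were then called. Socs3 was called there too, and also without MecomWT:R751W replicate 1 (1.33% of genes). Of the 10 members 0 were called without WT replicate 1 or 2 (0.66% and 0.456% of genes) or without MecomWT:R751W replicate 2 or 3 (0.463% and 0.948%). Nothing is read from these calls, since the gene was picked with this contrast known.

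Socs2 lies on chromosome 10 from 95383903 to 95417321 in GRCm38, on the minus strand, and GENCODE M21 gives it 14 transcripts. The length that the TPM implies was 11867 bp, against 9531 bp for the union of its GENCODE exons, so the values sum over several transcript forms and a shorter form would have a higher level per length. A RefSeq lncRNA, Gm33230, overlaps the locus. It has no row among the 18465 genes.

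Some markers of other cells also lay higher in MecomWT:R751W, at low levels. The summed level of T and NK cell markers was 8.44 to 9.58 TPM in WT and 18.6 to 21.2 TPM in MecomWT:R751W. Of 12 markers listed, 4 had rows (Nkg7, Thy1, Cd4 and Lck), and Cd3d, Cd3e, Cd3g and Cd8a, which define T cells, had none. Nkg7 made up more than any other marker, at 3.89 to 4.76 and 9.52 to 12.1 TPM. Of 10 erythroid markers with rows, 5 lay wholly above WT and 0 wholly below, beside 4.5% and 4.7% of all genes. These were Klf1, an erythroid transcription factor (1.15 to 2.53 TPM in WT, 2.74 to 4.88 in MecomWT:R751W), Car1, a carbonic anhydrase (0.558 to 1.09 and 1.71 to 8.93), Rhd, a blood group protein (0.583 to 0.760 and 1.93 to 3.12), Ermap, an erythroid membrane protein (0.5005 to 1.30 and 1.78 to 3.00), and Sptb, the red cell beta spectrin (0.571 to 0.821 and 1.34 to 1.75). The groups of the remaining erythroid markers overlapped. By WT and MecomWT:R751W means these were the globin genes Hba-a1 (2.04 and 2.34 TPM) and Hbb-bs (2.10 and 2.32), Epor (2.26 and 2.96), Tfrc (18.5 and 17.9) and Car2 (322 and 303). Cd48, the surface marker the sort removes, was at 2.18, 1.85 and 1.02 TPM in WT against 3.24, 2.27 and 4.10 in MecomWT:R751W, wholly above WT. The part of such cells in the Socs2 values was not tested. In a bulk sample, more cells of a type and more RNA per cell cannot be told apart.

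Cish, also called CIS (chromosome 9, 107296659 to 107302784, plus strand), is the closest relative of Socs2 and a classic STAT5 target that binds the receptor at the sites where STAT5 docks. It was at 15.0, 16.5 and 16.7 TPM in WT against 22.0, 17.2 and 14.6 in MecomWT:R751W. The MecomWT:R751W libraries spread on both sides of WT, with replicate 1 the highest of all 6 and replicate 3 the lowest. The means were 16.1 ± 0.930 and 17.9 ± 3.75 TPM, a log2 fold change of 0.13 (SE 0.16) that stood at -0.02 without MecomWT:R751W replicate 1. The Cish groups overlapped, while those of Socs2 lay apart. The difference between Socs2 and Cish in this respect was not tested.

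Socs1 and Socs3 differ from the other SOCS proteins in a short kinase inhibitory region with which they block JAKs directly. Socs1 mainly restrains interferon and interleukin signals, and Socs3 (chromosome 11, 117966079 to 117970336, minus strand) binds the gp130 and G-CSF receptors and so limits STAT3. For Socs3, 9.02, 4.25 and 3.84 TPM were measured in WT and 4.69, 2.85 and 1.78 in MecomWT:R751W. WT replicate 1 stood far above the other libraries, and MecomWT:R751W replicate 1 lay above WT replicates 2 and 3. The means were 5.71 ± 2.88 and 3.11 ± 1.47 TPM, a ratio of 0.545, and relative to its mean Socs3 varied most of the 10 genes within either group (SD of 50.5% and 47.3% of the mean).

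The log2 fold change of Socs3 was -0.69 (SE 0.30). It was -0.36 without WT replicate 1, -0.44 without MecomWT:R751W replicate 3 and -0.95 without MecomWT:R751W replicate 1, and in the last of these the groups no longer overlapped. The implied reads were 244, 126 and 119 in WT and 122, 82 and 54 in MecomWT:R751W. The exact Poisson interval (95%) of WT replicate 1 was 7.93 to 10.2 TPM and that of WT replicate 2 was 3.54 to 5.06 TPM, so the spread within WT exceeded Poisson counting error.

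Immediate early genes, which are switched on within minutes of a stimulus, followed a similar order to Socs3 over the libraries. Over 21 such genes the mean log2(TPM + 1) level was 5.77, 5.31 and 4.86 in WT against 5.22, 4.54 and 4.40 in MecomWT:R751W. WT replicate 1 was the highest library and MecomWT:R751W replicates 2 and 3 were the lowest on both measures. All 21 had negative log2 fold changes, with a median of -0.60, beside -0.0037 over all genes. Their part in the Socs3 values was not tested.

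**Figure D2:**
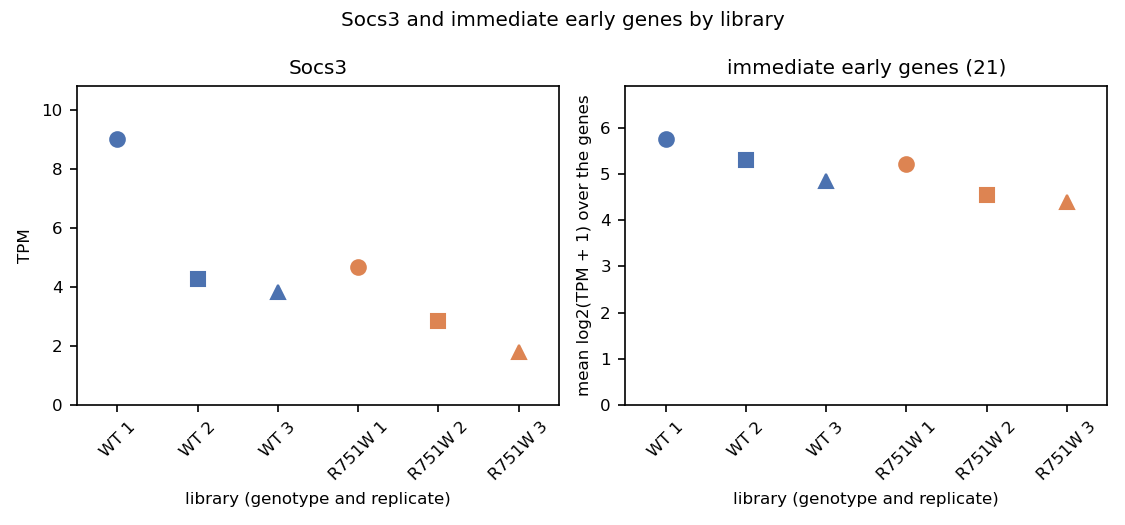
Level of Socs3 (left, TPM) and mean log2(TPM + 1) level of 21 immediate early genes (right) in each library, both from 0. On both sides WT replicate 1 is highest (9.02 TPM; 5.77) and MecomWT:R751W replicate 3 lowest (1.78 TPM; 4.40).

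Socs1 was at 4.48, 4.00 and 4.00 TPM in WT against 4.03, 3.09 and 5.51 in MecomWT:R751W. The mutant libraries spread around WT, with means of 4.16 ± 0.277 and 4.21 ± 1.22 TPM and a log2 fold change of -0.01 (SE 0.20). Its implied reads were few, 33 to 62 a library, and the exact Poisson intervals (95%) of the 2 outermost libraries, 2.13 to 4.34 and 4.22 to 7.06 TPM, overlapped.

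STATs bind a core of TTC and GAA held 3 bases apart, so the RefSeq promoter windows (GRCm38.p6, 250 bases before to 50 after a gene start) were searched for TTCNNNGAA, which reads the same on both strands. Windows were found for 9 of the 10 genes, all but Socs2, which was not searched, and there were 11 in all, of which 2 held a match, those of Cish and Socs3. The Cish window held 2 matches, at the 1st and 12th base after the start, on chr9:107296654-107296683, plus strand. The Socs3 match began at base -154 from the start of its window's transcript at 117969366, on chr11:117969501-117969530, minus strand. That stretch lies within the RefSeq bounds of the gene, whose outermost start is at 117970336. Both are shown because these windows held the core, which is in capitals.
Cish: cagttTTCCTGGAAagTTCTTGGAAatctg
Socs3: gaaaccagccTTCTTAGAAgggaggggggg
Of all 32851 windows, 8.30% held at least 1 match and 0.457% held 2 or more. A match is a description of the letters and shows no binding.

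Sh2b3 encodes the adaptor LNK, which binds JAK2 and whose loss in mice expands the stem cell pool. It was at 14.6, 13.5 and 14.5 TPM in WT against 13.5, 10.2 and 14.4 in MecomWT:R751W. MecomWT:R751W replicate 2 was the lowest library and the groups overlapped. The log2 fold change was -0.16 (SE 0.16), and -0.02 without that library. Exons of Sh2b3 overlap the span of Atxn2 on the opposite strand. The same holds for exons of Jak1 with Raver2, and of Cish with Gm17040 and Gm17041, which have no rows. The strand setting of the counting was not given in the sources used here.

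For the kinases the log2 fold changes lay near 0. Jak1, which serves gp130, interferon and common gamma chain receptors, was at 101, 79.2 and 87.4 TPM in WT against 91.0, 75.4 and 93.4 in MecomWT:R751W. Replicate 2 was the lowest library in both groups, and the log2 fold change was -0.04 (SE 0.14). Jak2, the kinase of the erythropoietin receptor and the interleukin 3 receptor family, was at 22.9, 20.2 and 25.2 TPM in WT against 23.5, 20.4 and 23.1 in MecomWT:R751W. The Jak2 groups overlapped almost fully, with a log2 fold change of -0.03 (SE 0.14).

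Stat3 and both STAT5 genes sit side by side on chromosome 11, Stat5b from 100780731 to 100859004, Stat5a from 100859351 to 100885169 and Stat3 from 100886806 to 100939594 in GRCm38. Stat3, the main STAT of gp130 and G-CSF receptor signals, was at 53.2, 43.6 and 49.1 TPM in WT against 49.6, 40.3 and 48.6 in MecomWT:R751W, a log2 fold change of -0.07 (SE 0.14). Stat5a was at 32.6, 25.4 and 27.2 TPM in WT against 25.5, 22.7 and 26.3 in MecomWT:R751W, a log2 fold change of -0.18 (SE 0.14). WT replicate 1 was its highest library, and the log2 fold change was -0.08 without it. Stat5b was at 25.2, 21.1 and 25.0 TPM in WT against 23.2, 22.1 and 27.5 in MecomWT:R751W, a log2 fold change of 0.03 (SE 0.14).

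STAT5A and STAT5B are near-identical proteins that can replace each other in part, so reads from shared stretches may go to either gene. Of all runs of 50 bases in their GENCODE M21 transcripts, 8.21% of those of Stat5a and 11.0% of those of Stat5b occurred in both genes. The rule for counting such reads was not given in the sources used here. In GENCODE the ends of Stat5a and Stat3 also overlap on opposite strands.

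Replicate 2 of each genotype had the lowest share of TPM in protein-coding genes, 25.9% in WT and 26.0% in MecomWT:R751W, against 28.9% to 30.1% in the other libraries. When protein-coding genes were rescaled to 1 common total, the SD of Jak1 in WT fell from 12.5% to 5.94% of its mean, and the SD of Stat3 from 9.91% to 2.55%. The WT SD rose for Cish, from 5.79% to 12.35% of its mean, and for Socs2, from 7.29% to 9.34%. It fell for the rest of the 10 genes. On this scale Stat5a was at 108, 98.1 and 94.0 in WT and 85.8, 87.1 and 91.2 in MecomWT:R751W, and Stat3 at 177, 169 and 170 in WT and 167, 155 and 168 in MecomWT:R751W. Both then lay wholly below WT, beside 8.63% of 12394 genes on this scale, and Socs2 wholly above (7.53%), so 3 of 10 did not overlap (16.2%). By the adjusted threshold 0 of 10 were called there, beside 0.137%. With median ratio scaling Stat5a lay wholly below WT and Stat3 did not. The ratio of the means was 0.879 for Stat5a and 0.951 for Stat3. For Stat3 the nearest libraries almost touched, at 168.7 and 168.3.

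**Figure D3:**
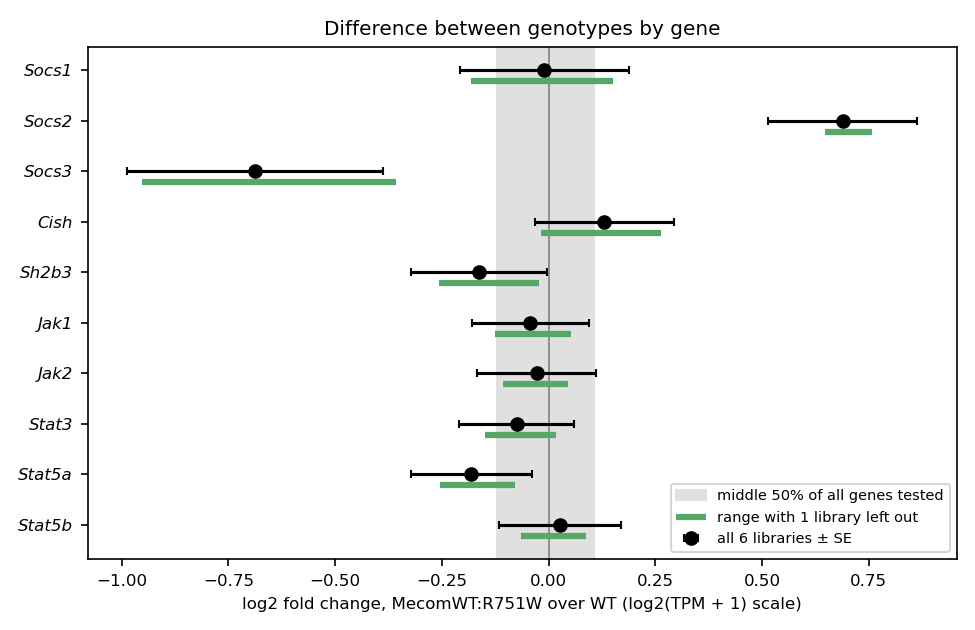
Log2 fold change of MecomWT:R751W over WT on the log2(TPM + 1) scale for each gene (dots, all 6 libraries ± SE; green bars, range with 1 library left out; grey band, middle 50% of all genes tested, from -0.12 to 0.11). Socs2 (0.69) and Socs3 (-0.69) stand outside the band under every library left out, and the range of Socs3 is the wider one.

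By level in WT the genes ran from Jak1 (89.3 ± 11.2 TPM) through Stat3 (48.7 ± 4.82), Stat5a (28.4 ± 3.79), Stat5b (23.8 ± 2.29), Jak2 (22.8 ± 2.49), Cish (16.1 ± 0.930), Sh2b3 (14.2 ± 0.654), Socs3 (5.71 ± 2.88) and Socs1 (4.16 ± 0.277) to Socs2 (2.42 ± 0.176). The ranges of Stat5b and Jak2 overlapped, as did those of Socs3 and Socs1, so these neighbours did not differ beyond their spread. The other neighbours had ranges apart. These ranges leave out any error in gene length, and the order rests on the lengths that the TPM implies. Those were 10742, 4574 and 1340 bp for Jak2, Stat3 and Socs1, against GENCODE exon unions of 5030, 9527 and 2908 bp. Jak1 was above 96.2% of the tested protein-coding genes and Socs2 above 11.0%. In MecomWT:R751W 8 of the 10 kept their place in the order, while Socs2 moved from 10 to 8 and Socs3 from 8 to 10. Ranges there overlapped between Stat5a and Stat5b, Stat5b and Jak2, Jak2 and Cish, Socs2 and Socs1, and Socs1 and Socs3, so those places were not resolved.

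Genes with the most similar profile over the 6 libraries were sought for Socs2, Socs3 and Cish, by the root mean square difference between log2(TPM + 1) values centred on their mean. Only protein-coding genes with at least 5 TPM on average were searched. Closest to Socs2 were Ly9, a SLAM family receptor of blood cells (0.087 log2 units), Elof1, a transcription elongation factor (0.098) and Trim6, a ubiquitin ligase (0.11), where the spread of Socs2 itself was 0.35. Ly9 was at 5.76, 6.67 and 7.64 TPM in WT against 12.5, 9.30 and 11.2 in MecomWT:R751W, so the Ly9 groups too lay apart. Closest to Socs3, whose own spread was 0.56, were Sik1, a salt-inducible kinase (0.10), Skil, a SMAD co-repressor (0.13), and Dhrs11, a dehydrogenase (0.14). Closest to Cish, whose own spread was 0.18, were Atp5l, an ATP synthase subunit (0.052), Ctse, the protease cathepsin E (0.072) and Mettl16, an RNA methyltransferase (0.082). Among 8477 candidates for Socs2 and for Socs3 and 8476 for Cish, close matches over 6 libraries arise easily, and these are listed as a description.

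The rest of the pathway was described from lists of genes, none of which had a member past the adjusted threshold over all genes by limma. At an unadjusted p under 0.05, 2.74% of all genes were higher and 3.23% lower. Of other JAKs and STATs, Jak3, Tyk2, Stat2, Stat4 and Stat6 were taken, and 0 of 5 had such a p. Their log2 fold changes ran from -0.09 (Jak3, the kinase of the common gamma chain) to 0.08 (Stat6, the STAT of interleukin 4), and Stat4 stood at -0.05. The remaining SOCS genes, Socs4 to Socs7, gave 0 of 4, with Socs5 at 0.14, Socs6 at 0.13 and Socs7 at -0.13. Of the family genes among the members, Socs1 and Cish lay within the range from -0.13 to 0.14, and Socs2 and Socs3 outside it. That range is set by these same 4 genes, and the members were selected on this difference, so nothing is read from it.

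Other brakes, 13 genes for phosphatases, PIAS proteins, CBL ligases and SH2B adaptors, gave 0 of 13, with a median log2 fold change of -0.05. Sh2b2, a relative of Sh2b3 also called APS, was the member farthest from 0 at -0.40 (SE 0.19), with 3.14, 2.21 and 2.68 TPM in WT against 1.49, 2.10 and 1.72 in MecomWT:R751W. Pias3 stood at -0.16 and Pias4 at 0.08. Ptpn6, which encodes the phosphatase SHP-1, averaged 91.8 ± 6.80 TPM in WT against 91.4 ± 10.6 in MecomWT:R751W, and was named after its values were seen.

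Receptor chains that use JAKs had rows for 23 of 32 genes, and 2 were higher and 1 lower at an unadjusted p under 0.05, with a median log2 fold change of 0.04. By groups that did not overlap, 2 of 23 lay wholly above WT and 2 wholly below, beside 4.5% and 4.7% of all genes. Csf2ra, the GM-CSF receptor alpha chain, was named after its values were seen. It lay wholly below WT, at 3.82, 4.42 and 3.43 TPM in WT against 3.09, 2.80 and 3.21 in MecomWT:R751W. Il11ra1, the interleukin 11 receptor alpha chain, was at 31.7, 27.4 and 27.9 TPM in WT against 23.0, 24.0 and 23.8 in MecomWT:R751W. All 3 mutant libraries were below WT, a log2 fold change of -0.28 (SE 0.13), and the adjusted p was 0.825 by limma. Csf2rb, the beta chain shared by the interleukin 3, interleukin 5 and GM-CSF receptors, was at 8.15, 5.59 and 7.62 TPM in WT against 10.4, 9.52 and 10.5 in MecomWT:R751W, wholly above WT (0.47, SE 0.17, adjusted p = 0.674 by limma). Il10ra, a chain of the interleukin 10 receptor, was at 0.838, 1.32 and 1.10 TPM in WT against 2.34, 2.33 and 3.40 in MecomWT:R751W (0.82, SE 0.20, adjusted p = 0.344 by limma). Over protein-coding rows alone Il10ra passed (adjusted p = 0.018 by limma), the 1 gene of this list that did, beside 1.16% of 11394 genes.

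Genes known as STAT5 targets, other than Socs2 and Cish, gave 0 of 10 higher and 3 of 10 lower at an unadjusted p under 0.05, with a median of -0.13. The lower 3 were Pim1 and Pim3, survival kinases, and Mcl1, which blocks cell death. Pim1 was at 130, 97.0 and 88.5 TPM in WT against 82.1, 78.2 and 84.7 in MecomWT:R751W, a log2 fold change of -0.34 (SE 0.15). Mcl1 stood at -0.33 and Pim3 at -0.57. None of the 3 passed the adjusted threshold over all genes (adjusted p of 0.797, 0.786 and 0.797 by limma for Pim1, Mcl1 and Pim3). Of the 10 targets 7 had negative and 3 positive log2 fold changes. By groups that did not overlap, 2 of 10 lay wholly above WT and 1, Pim1, wholly below, beside 4.5% and 4.7% of all genes. The 2 above, named after their values were seen, were Bcl2l1, which blocks cell death (6.34 to 7.40 TPM in WT, 7.61 to 8.06 in MecomWT:R751W), and the cytokine gene Osm (1.07 to 1.55 and 1.58 to 2.55). Neither had an unadjusted p under 0.05.

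Genes known as STAT3 targets, other than Socs3, all had negative log2 fold changes, 9 of 9, with a median of -0.34, and 4 of 9 were lower at an unadjusted p under 0.05. By groups that did not overlap, 2 of 9 lay wholly below WT and 0 wholly above, beside 4.7% and 4.5% of all genes. Gadd45g, a stress sensor of the GADD45 family, was at 3.70, 3.38 and 3.56 TPM in WT against 2.69, 1.86 and 1.10 in MecomWT:R751W (-0.69, SE 0.22, adjusted p = 0.583 by limma). Cebpb, a C/EBP transcription factor, stood at -0.57 (SE 0.24). Over protein-coding rows alone 2 of the 9 passed by limma, Cebpb (adjusted p = 0.046) and Vegfa (0.0187), beside 1.16% of all genes in that fit. Vegfa was named after its values were seen. The groups overlapped for both, and over all genes their adjusted p was 0.795 for Cebpb and 0.797 for Vegfa by limma. Junb is counted here and among the immediate early genes, and Pim1 here and among the STAT5 targets. The immediate early genes moved with this list, as given beside Socs3, and their part in it was not tested.

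Interferon response genes gave 0 higher and 1 lower of 17, with a median of -0.09. The lower 1 was Irf1, a transcription factor of that response, at 41.4, 38.1 and 33.6 TPM in WT against 31.1, 25.5 and 28.6 in MecomWT:R751W (-0.40, SE 0.14, adjusted p = 0.651 by limma). Ifit2 stood at 0.22 and Ifit3 at -0.34. Of the immediate early genes, 12 of 21 were lower at an unadjusted p under 0.05, beside 3.23% of all genes. By groups that did not overlap, 3 of 21 lay wholly below WT and 0 wholly above, beside 4.7% and 4.5% of all genes. The list mean overlapped between the groups, and genes that vary together over libraries are not separate results. Dusp2 (-0.70), Egr1 (-1.08) and Klf2 (-0.97) had the smallest p. Over protein-coding rows alone 9 passed, beside 1.16% of all genes in that fit. That fit kept the log2 fold changes and changed the SE, for Socs3 from 0.30 to 0.20 and for Socs2 from 0.18 to 0.19. Some genes it called had groups that overlapped. Nr4a1, named after its values were seen, was at 53.5 to 145 TPM in WT and 23.7 to 74.0 in MecomWT:R751W. Its adjusted p by limma was 0.662 over all genes and 3.2e-05 over protein-coding rows.

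**Figure D4:**
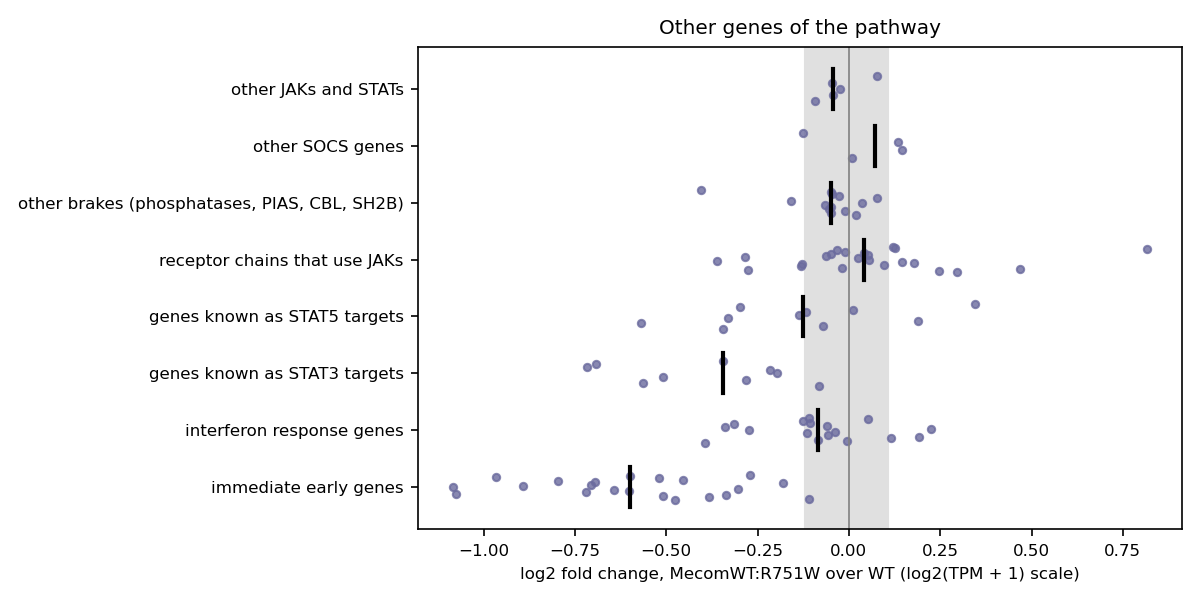
Log2 fold change of MecomWT:R751W over WT on the log2(TPM + 1) scale for each tested gene of 8 lists (dots; black bars, list medians; grey band, middle 50% of all genes tested). The medians of the STAT3 targets (-0.34) and the immediate early genes (-0.60) lie farthest outside the band, and those of the other JAKs and STATs, SOCS genes, brakes and receptors lie within it.

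For the libraries as a whole, implied totals were 10427533 to 12378149 reads. Mecom ranged from 34.9 to 42.9 TPM in WT against 40.0 to 50.9 in MecomWT:R751W, and a gene total does not tell the altered transcript from the normal one. The 9 markers of SLAM-LSK cells all had rows, with a summed level of 384 to 459 TPM in WT and 340 to 436 TPM in MecomWT:R751W. Among other lineages, B and plasma cell markers had rows for 1 of 7 genes (5.30 to 8.21 and 6.38 to 8.11 TPM) and mast cell and basophil markers for 1 of 8 (0.900 to 2.12 and 0.932 to 2.17 TPM). Erythroid markers summed to 320 to 402 and 317 to 391 TPM, nearly all of it Car2, which hides the low markers given beside Socs2. Megakaryocyte markers summed to 123 to 145 and 110 to 163 TPM, and neutrophil and monocyte markers, with rows for 4 of 10, summed to 96.4 to 112 and 86.5 to 112 TPM. Of the 4 genes the gate excludes, Cd48 and Itgam had rows, with 3.66 to 10.3 and 4.61 to 8.40 TPM in sum, of which Itgam in WT replicate 1 was 8.11.

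**Figure D5:**
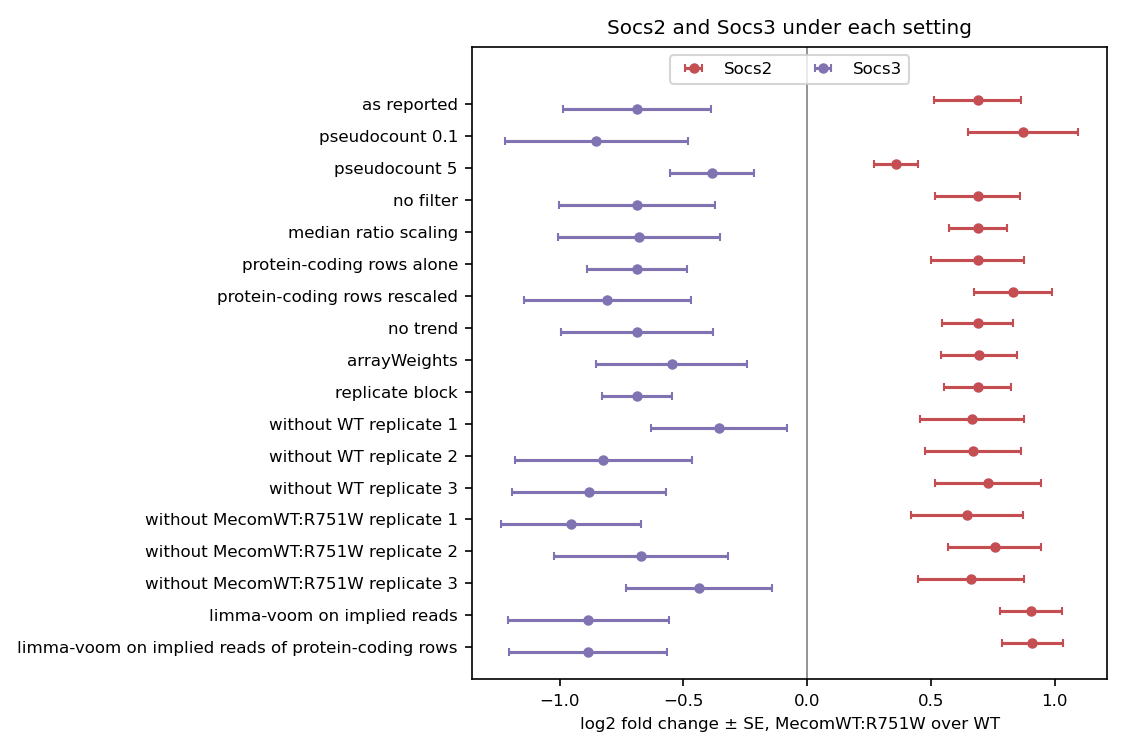
Log2 fold change ± SE of Socs2 (red) and Socs3 (purple) under each setting of the analysis that kept both genes. Socs2 stays between 0.36 (pseudocount 5) and 0.91 (voom), and Socs3 between -0.95 and -0.36, with the values nearest 0 without WT replicate 1 and with a pseudocount of 5.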

How the data were processed

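The authors deposited 1 table of TPM, with 1 column for each of the 6 libraries. Per the submitters' processing notes the build was mm10 and DESeq2 was used, with no role stated. The aligner, the counting tool and its strand setting, and which of the library kits in the labels' protocols was used, were not given in the sources used here. For the test, log2(TPM + 1) was fitted on genotype alone by limma 3.58.1 (R 4.3.3), its variance prior following the mean level. It took in 16655 genes that averaged 1 TPM or more, and two-sided p-values were adjusted over all of them by Benjamini-Hochberg. On simulated tables of 16655 genes, 124 of 200 genes changed by 1 log2 unit were recovered with 5 false calls. The simulated noise was independent between genes, and the changed genes were drawn above a set mean level. Recovery in the real libraries may therefore differ.

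Implied reads were whole within 0.002 reads for 100% of genes. Of 403 small RNA genes, 91.8% had an implied length within 1 bp of RefSeq. The constant that scales the lengths was set on these same genes, so this share is not a check on held-out genes. RefSeq (GRCm38.p6) gave gene types, coordinates and promoters, and GENCODE M21 transcripts.

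The genes, the lists and the alternatives were chosen with earlier results of these data known. All 10 genes were named, and per list up to 3 genes of smallest unadjusted p. Protein sequences were not used here, and some genes of the lists are not reported here. Python 3.11.15, numpy 2.4.6, pandas 2.3.3, scipy 1.17.1 and matplotlib 3.10.9 were used.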

Additional observations from a re-analysis of the deposited data

How the results depend on the processing

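Over all genes, limma called 0 higher and 0 lower (995 at an unadjusted p under 0.05, smallest adjusted p 0.0856). It called 1 and 1 over genes of at least 5 TPM, 40 and 92 over protein-coding rows, 8 and 9 with those rows rescaled, and 0 and 1 with library weights. Voom on the implied reads, added after the data were seen, called 24 and 26, and over protein-coding rows 38 and 52. With 1 library left out the counts ranged from 0 to 6 higher and 0 to 9 lower, and over protein-coding rows (added after the data were seen) they were 35 and 40, 17 and 35, and 63 and 135 without WT replicates 1 to 3, and 25 and 126, 27 and 26, and 28 and 80 without MecomWT:R751W replicates 1 to 3. The cause was not tested.

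Socs2 kept a positive and Socs3 a negative log2 fold change in every setting that tested them. Socs2 stood at 0.87 and 0.36 with pseudocounts of 0.1 and 5, at 0.83 with protein-coding rows rescaled and at 0.91 with voom, and was not tested over genes of at least 5 TPM. The medians moved by less than the spread between libraries in every setting. With the replicate block 0 higher and 0 lower genes were called and 1616 had an unadjusted p under 0.05. Same-numbered libraries had correlated deviations of 0.14, 0.0893 and 0.0833, and each library correlated best with its own number. The last 2 were below 0.1, and the numbers were not taken as pairs in the main fit. These values do not settle whether they are pairs. With the block the SE was 0.14 for Socs3 and 0.13 for Socs2, against 0.30 and 0.18 without it, at unchanged log2 fold changes. For Socs3 each MecomWT:R751W library was below the WT library of its number. Socs1, with 33 to 62 reads a library, is the gene most limited by depth.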

Other observations

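Some ratios between these genes, formed after their values were seen, are given as values. The level of Socs2 over that of Socs3 was 0.255, 0.547 and 0.682 across WT replicates 1 to 3, against 1.03, 1.40 and 2.64 across MecomWT:R751W replicates 1 to 3. By TPM Socs2 was thus the lower of the pair in each WT library and the higher in each MecomWT:R751W library. This order rests on the lengths that the TPM implies, 11867 bp for Socs2 and 3605 bp for Socs3. In implied reads Socs2 already stood above Socs3 in WT replicates 2 and 3 (227 against 126 and 267 against 119), though not in WT replicate 1 (205 against 244). Stat5b over Stat5a was 0.773, 0.834 and 0.919 in WT and 0.909, 0.975 and 1.05 in MecomWT:R751W, where the highest WT library lay above the lowest mutant one.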
